A study of Mus musculus with 2 samples.

Results

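The genes described here are 9 that stromal cells such as fibroblasts are known to secrete: the CC chemokines Ccl2 and Ccl7, the CXC chemokines Cxcl1, Cxcl5, Cxcl10 and Cxcl12, the cytokines Il6 and Csf1, and the pentraxin Ptx3. They were taken as every probe set with 1 gene symbol in the platform annotation, that symbol being one of the 9, which gave 17 of the 45101 probe sets on the array and 9 of the 18193 genes named there. A probe set pools several short probes for a transcript into 1 signal, and some genes are covered by more than 1 such set. The study compared mouse embryonic stem (ES) cells labelled as constitutive Eed knockout (Eed KO) with cells labelled as their control, on 1 Affymetrix MOE430 2.0 array each, hybridized with biotin-labelled cRNA made from total RNA. Eed belongs to Polycomb repressive complex 2, which places a repressive methyl mark on histone H3. The labels give no parent line, number of clones, way of disruption, passage or feeder layer for either group.

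Chemokines are small secreted proteins that bind G protein-coupled receptors on leukocytes and other cells and direct their movement along a gradient. CC and CXC chemokines are named for the spacing of their first conserved cysteines, and most genes of each class lie in clusters that arose by tandem duplication. Fibroblasts and other stromal cells transcribe many of these genes, with Il6, Csf1 and Ptx3, when inflammatory signals activate NF-kB, AP-1 and C/EBP transcription factors. Undifferentiated ES cells are not known as a main source of them.

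All 9 genes read higher in the Eed KO array than in the control array, by 2.16-fold (Cxcl10) to 13.9-fold (Ptx3), and 0 of the 9 read lower. Their median log2 ratio of Eed KO over control was 2.18, against 0.12 over all 13794 measured genes. The 9 genes were chosen with earlier results of these data known, so this excess over all genes is no independent result. Among all measured genes, 10.8% were higher by 2-fold or more and 3.27% lower by as much. With a common median for both arrays in place of the deposited scaling, 873 genes were higher and 1034 lower rather than 1483 and 451, and the median over all genes moved to -0.16. Of the 9 genes, 8 were then still at least 2-fold higher. There was 1 array in each group, so the difference has no replicate check, no p-value was computed, and every ratio is one between these 2 arrays. In bulk RNA, fewer cells of a type and less RNA per cell cannot be told apart.

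Signals are MAS5 intensities on a linear scale, and the number of arrays limits their precision. Values below 61.3, the 40th percentile of all signals on both arrays, were set to that floor before a ratio was taken. A ratio that involves a floored value is therefore printed as "at least". A gene whose control signal is less than 2-fold above the floor cannot be called lower. One whose Eed KO signal is less than 2-fold above it cannot be called higher. Counts of lower among dim genes are thus limited in advance, and medians over lists with floored ratios can be bounds. Measured genes are those above the floor on either array, and each gene is represented by the probe set whose mean log2 signal was highest. All 9 genes were above the floor on both arrays by that probe set, so none passed the floor through 1 group alone. The choice of probe set does use the Eed KO signal. For Cxcl1 the brightest probe set on the control array was another (458.2 and 824.5, log2 ratio 0.85). Of the 17 probe sets, 15 were measured, 13 passed 2-fold upward in the Eed KO, 2 were within 2-fold and 0 passed it downward, where 9.80% of all measured probe sets were higher and 3.47% lower. The only error estimate within this pair of arrays is the disagreement of the 2 brightest probe sets of a gene. It gave an SD for a log2 ratio of 0.41 at signals from 128 to 256, 0.25 from 512 to 1024 and 0.18 above 2048, and covers technical and isoform spread only.

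**Figure D1:**
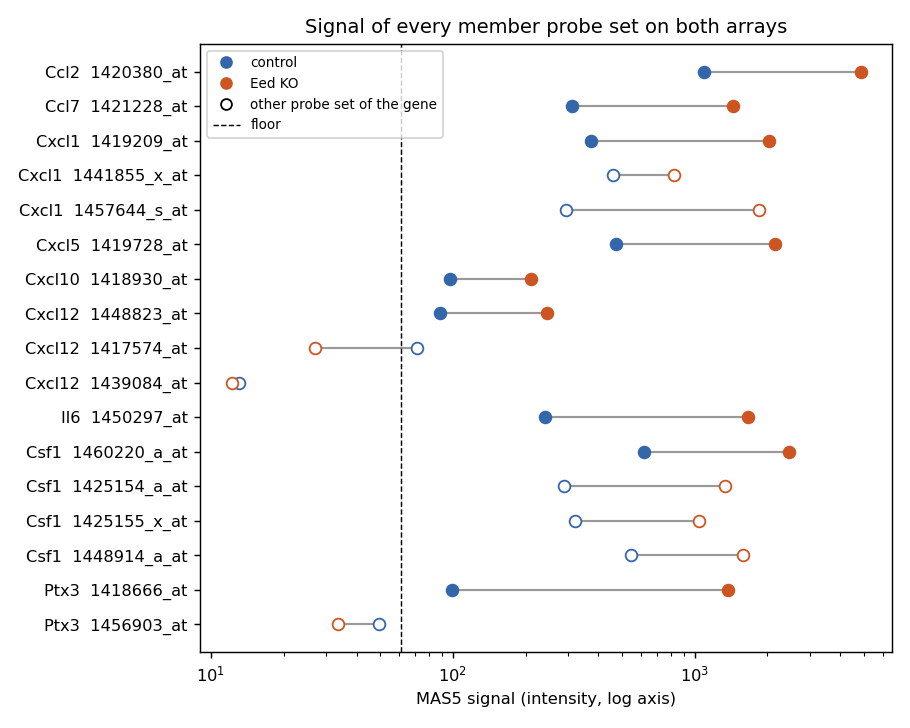
MAS5 signal (log axis) of all 17 probe sets of the 9 genes in the control (blue) and Eed KO (orange) arrays. Filled points are the probe set that stands for the gene, open points its other probe sets, and the dashed line is the floor of 61.3. The filled orange point lies to the right of the filled blue point for every gene, while the open points of Cxcl12 and Ptx3 at the left lie near or under the floor.

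The transcript targeted in the study, Eed, gave signals of 10101 (control) and 11456 (Eed KO) by its main probe set, and 49.0 and 56.7, under the floor, by its other. The labels do not place the disruption, so these signals check nothing about the label. Markers of ES cells were present on both arrays, with 12 of 12 above the floor on both. Dppa5a read 42021 and 45754, Tdgf1 17800.5 and 17315, Zfp42 11182 and 19195, and Pou5f1 12948 and 11352 in the control and the Eed KO. By main probe sets, 1 of these 12 markers was at least 2-fold higher (Klf4) and 0 lower, with a ratio above 1 for 6 and a median log2 ratio of 0.04. The lowest was Lin28a (5368.5 and 2734.8, log2 ratio -0.97), whose other probe set read 818.9 and 909.2 (0.15). Other probe sets of Sall4 (3066.5 and 1046.2, -1.55) and Utf1 (966.1 and 326.1, -1.57) passed 2-fold downward. That of Klf4 (1832.4 and 5564.6, 1.60) passed it upward. The signals summed over the list were 142079 and 158193.

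Promoter sequences were held by the RefSeq table of build GRCm38.p6 for 6 of the 9 genes: Cxcl1, Cxcl10, Cxcl12, Il6, Csf1 and Ptx3. The 250 bases before the transcription start are shown for the 3 of them with the largest ratios and the 1 with the smallest, because the factors known to act on cytokine genes bind there. Capitals mark matches to the letters searched, on both strands: GGG, any 3 bases and TTCC for NF-kB, TGANTCA for AP-1, TTGCNNAA for C/EBP, and GAAA, any 2 bases and GAAA for the interferon-stimulated response element. Each sequence runs 5′ to 3′ along the strand of the gene.
Il6 (chr5:30012864-30013113, plus strand): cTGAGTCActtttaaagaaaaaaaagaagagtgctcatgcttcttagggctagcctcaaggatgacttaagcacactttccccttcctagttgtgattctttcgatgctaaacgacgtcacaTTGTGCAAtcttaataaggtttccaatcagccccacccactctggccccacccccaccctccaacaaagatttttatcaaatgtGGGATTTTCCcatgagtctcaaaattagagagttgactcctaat
Cxcl1 (chr5:90890995-90891244, plus strand): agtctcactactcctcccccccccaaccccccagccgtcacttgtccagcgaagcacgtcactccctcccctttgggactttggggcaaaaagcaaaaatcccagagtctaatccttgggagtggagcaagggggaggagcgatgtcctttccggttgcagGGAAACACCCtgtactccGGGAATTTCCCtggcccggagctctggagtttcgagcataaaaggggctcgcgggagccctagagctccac
Ptx3 (chr3:66219637-66219886, plus strand): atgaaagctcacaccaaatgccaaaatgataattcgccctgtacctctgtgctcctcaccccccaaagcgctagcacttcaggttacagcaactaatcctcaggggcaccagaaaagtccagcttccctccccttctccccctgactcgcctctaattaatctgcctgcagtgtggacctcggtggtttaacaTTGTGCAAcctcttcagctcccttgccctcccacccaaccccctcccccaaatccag
Cxcl10 (chr5:92348890-92349139, minus strand): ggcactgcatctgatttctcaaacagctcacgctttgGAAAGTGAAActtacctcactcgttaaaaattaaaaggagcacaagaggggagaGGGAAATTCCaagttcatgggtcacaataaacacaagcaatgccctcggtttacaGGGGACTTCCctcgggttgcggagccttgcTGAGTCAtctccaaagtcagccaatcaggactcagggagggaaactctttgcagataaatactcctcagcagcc
The NF-kB letters were found in 4 of the 6 promoters (Il6, Cxcl1, Cxcl10 and Csf1), and in 4.65% of the 32851 promoter windows of the same length in the table. In Il6 the match GGGATTTTCC lay from 44 to 35 bases before the start, and in Cxcl10 GGGAAATTCC and GGGGACTTCC lay from 159 to 150 and from 104 to 95 bases before it. In Cxcl1 the matches GGGAATTTCC and GGAATTTCCC overlap on opposite strands, from 71 to 61 bases before the start, and GGAAACACCC is a further match on the minus strand. AP-1 letters were found in 2 of the 6 (Il6 and Cxcl10, background 6.75%), C/EBP letters in 2 (Il6 and Ptx3, both TTGTGCAA, background 9.56%), and the interferon-stimulated response element in Cxcl10 alone (background 2.98%). The TATA box letters TATAAA, searched on the plus strand, were found in 0 of the 6 and in 7.59% of all windows. A match describes letters only, and nothing follows from these data about binding.

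The CC chemokines Ccl2 and Ccl7 attract monocytes, Ccl2 mainly through the receptor Ccr2 and Ccl7 through Ccr1, Ccr2 and Ccr3. Ccl2 gave a signal of 1097 on the control array and 4872 on the Eed KO array (4.44-fold, log2 ratio 2.15). Ccl7 read 311.1 and 1445 (4.64-fold, log2 ratio 2.22). Each gene has 1 probe set, and the Eed KO array was the higher one for both, by ratios that differed from each other by less than the SD between probe sets.

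Ccl2 and Ccl7 are neighbours on chromosome 11, at one end of a run of CC chemokine genes that continues with Ccl11, Ccl12, Ccl8 and Ccl1. The other genes of the run did not read alike. Ccl8 read 103.9 and 179.1 (log2 ratio 0.79), while Ccl11 (9.1 and 11.8), Ccl12 (5.9 and 11.9) and Ccl1 (24.0 and 44.9) were under the floor on both arrays. On the other side of Ccl2, 1700071K01Rik read 92.7 and 124.2.

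Cxcl1 and Cxcl5 belong to the neutrophil-attracting CXC chemokines that act through the receptor Cxcr2. Cxcl1 had a control signal of 374.1 and an Eed KO signal of 2029 by its main probe set (5.42-fold, log2 ratio 2.44). Its other probe sets read 292.9 and 1854 (log2 ratio 2.66) and 458.2 and 824.5 (log2 ratio 0.85). The last of these, whose name ends in _x_at, a suffix for probes that can match other sequences too, is 1 of the 2 measured probe sets that stayed within 2-fold, and Cxcl1 was 1.98 on the log2 scale as the mean over its probe sets. Cxcl5 read 473.8 and 2142 (4.52-fold, log2 ratio 2.18) by its 1 probe set.

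These 2 genes lie in a cluster on chromosome 5 in the order Cxcl5, Ppbp, Pf4, Cxcl3, Cxcl15, Cxcl1 and Cxcl2. Of these 7 genes, 5 passed 2-fold upward in the Eed KO and 0 downward, where 10.8% and 3.27% of all measured genes did. The 5 include Cxcl1 and Cxcl5, around which the cluster was picked. Pf4, Cxcl3, Cxcl15 and Cxcl2 had control signals too near or under the floor for a call of lower. Cxcl2 was under the floor in the control (43.5) and read 365.5 in the Eed KO, at least 5.96-fold higher. Cxcl3 read 79.3 and 321.3 (4.05-fold), and Ppbp, a platelet chemokine precursor, 135.2 and 409.2 (3.03-fold). Pf4, a platelet chemokine that does not act through Cxcr2, read 87.5 and 76.7, and Cxcl15 read 66.0 and 13.8, so these 2 genes between the higher ones were not higher. Cxcl1, Cxcl2 and Cxcl3 have similar coding sequences, and signal shared between their probes was not tested. Past Cxcl2, Mthfd2l read 168.7 and 87.4 (log2 ratio -0.95), Epgn was under the floor on both arrays, and Ereg, which encodes the epidermal growth factor receptor ligand epiregulin, read 171.2 and 754.0 (log2 ratio 2.14).

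**Figure D2:**
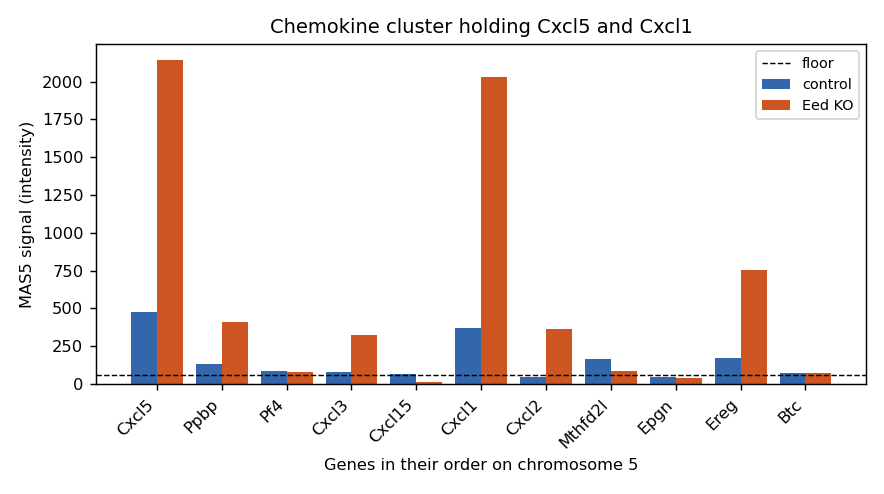
MAS5 signal in the control (blue) and Eed KO (orange) arrays for genes in their order along chromosome 5, from Cxcl5 to Btc, each by its main probe set. The dashed line is the floor of 61.3, and bar heights compare the 2 arrays for a gene, not different genes. The orange bar is the taller one for Cxcl5, Ppbp, Cxcl3, Cxcl1, Cxcl2 and Ereg, and Pf4, Cxcl15, Epgn and Btc stay near or under the floor on both.

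Around all 9 genes, the nearest 5 protein-coding genes with a named probe set on each side made up 74 further genes, of which 58 were measured. Of these, 9 were at least 2-fold higher and 2 lower, where 10.8% and 3.27% of all measured genes were. Their median log2 ratio was 0.17, against 0.12 over all measured genes. Ppbp, Cxcl3, Cxcl2 and Ereg, in or beside the chromosome 5 cluster, are among those higher. No result about the neighbours as a group is drawn from these counts. The neighbours of Il6 ranged from Tyms, the thymidylate synthase gene (218.8 and 114.8, log2 ratio -0.93), to Selenoi (737.2 and 1240.4, log2 ratio 0.75), and the genes beside Ptx3 were Veph1, under the floor on both arrays, and Shox2 (at least 2.04-fold higher, 38.8 and 124.9).

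Cxcl10 and Cxcl12 are CXC chemokines that do not act through Cxcr2. Cxcl10, an interferon-induced ligand of Cxcr3, had a control signal of 97.1 and an Eed KO signal of 209.6 (2.16-fold, log2 ratio 1.11). It did not reach 2-fold in 6 of 10 alternatives. Among these was a setting that raised the floor to the 60th percentile, above the control signal, where the ratio is only a bound of at least 0.32 on the log2 scale. Among the 1950 measured genes within 0.5 of its mean log2 signal, 429 passed 2-fold upward. Cxcl9, which lies close by on chromosome 5 and is another ligand of Cxcr3, was under the floor on both arrays (8.4 and 9.5), and the directly neighbouring genes Art3 and Nup54 were under the floor and at a log2 ratio of -0.44.

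Cxcl12, the stromal ligand of Cxcr4 and Ackr3, gave a mixed record. Its main probe set read 88.2 and 245.0 (2.78-fold, log2 ratio 1.47). A second read 71.2 in the control and 27.0, under the floor, in the Eed KO, and the last was under the floor on both arrays (13.1 and 12.2). As the mean over its probe sets, with the last counted as 0, the log2 ratio was 0.42, under 2-fold. Under the higher floor it was at least 0.54, a bound that does not reach 2-fold. Of the 1939 measured genes within 0.5 of its mean log2 signal, 430 passed 2-fold upward.

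Il6 encodes interleukin 6, which signals through Il6ra and the shared receptor chain Il6st to the transcription factor Stat3. Its signal was 241.4 on the control array and 1654 on the Eed KO array (6.85-fold, log2 ratio 2.78), and 40 of the 13794 measured genes had a larger ratio. Csf1 encodes macrophage colony-stimulating factor, the growth and survival factor of macrophages that binds Csf1r. Its main probe set read 616.5 and 2450.5 (3.97-fold, log2 ratio 1.99), and its 3 others read 288.6 and 1339, 320.1 and 1041, and 545.5 and 1587. All 4 Csf1 probe sets passed 2-fold upward, with log2 ratios of 1.54 to 2.21 and an SD of 0.30 between them.

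Ptx3 encodes a long pentraxin, a secreted pattern recognition protein that binds complement C1q and microbes. It had the largest ratio of the 9, from 99.2 on the control array to 1376 on the Eed KO array (13.9-fold, log2 ratio 3.79), and 4 measured genes had a larger one. The second Ptx3 probe set stayed below the floor with 49.6 and 33.5. Counted as a log2 ratio of 0, it brings the mean over probe sets to 1.90 on the log2 scale. The higher floor, which lies above the control signal, gave a log2 ratio of at least 3.03.

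**Figure D3:**
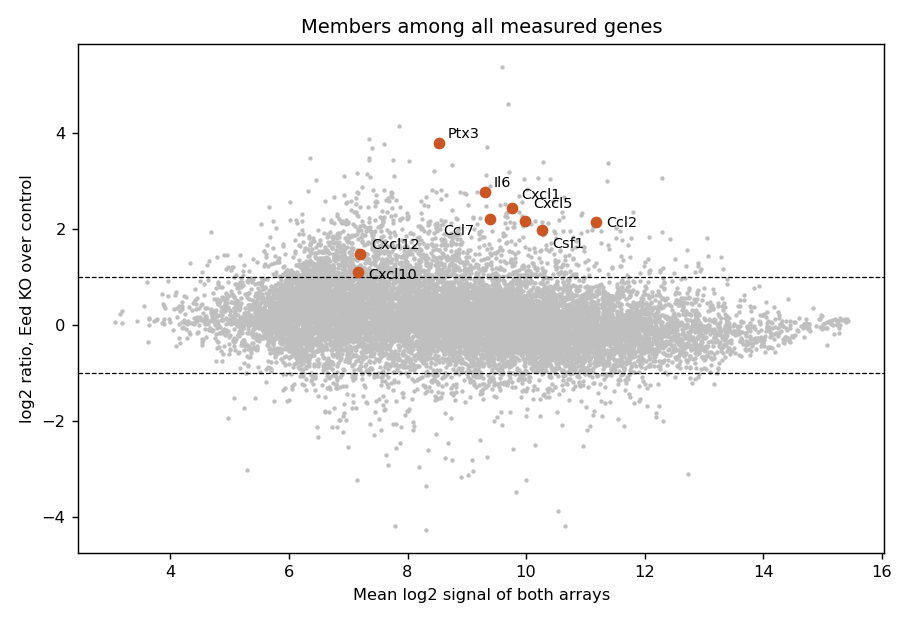
Log2 ratio of Eed KO over control against the mean log2 signal of both arrays for the 13794 measured genes (grey) and the 9 genes described (orange). Dashed lines mark 2-fold. All 9 lie above the upper line, with Ptx3 farthest and Cxcl10 nearest to it.

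Ordered by ratio, Ptx3 stood 1.02 above Il6 on the log2 scale, and Il6 0.34 above Cxcl1. The place of Ptx3 rests on its main probe set: with a gene's probe sets averaged, the Ptx3 log2 ratio minus that of Il6 was -0.88 and 5 of the 9 lay above it. In that average the second Ptx3 probe set, under the floor on both arrays, counts as a log2 ratio of 0, while Il6 has 1 probe set. The averaged order therefore says nothing further about Ptx3. Ccl7, Cxcl5, Ccl2 and Csf1 followed within 0.22 of each other. At their signals the SD of a single log2 ratio was 0.25 for Ccl7 and Cxcl5, 0.215 for Csf1 and 0.18 for Ccl2. A difference between 2 ratios carries the spread of both, so their order is not resolved. Of the 9, 6 passed 4-fold: Ptx3, Il6, Cxcl1, Ccl7, Cxcl5 and Ccl2. The share past 4-fold upward over all measured genes was 1.58%. With a common median for both arrays 3 of the 9 passed 4-fold (Ptx3, Il6 and Cxcl1).

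**Figure D4:**
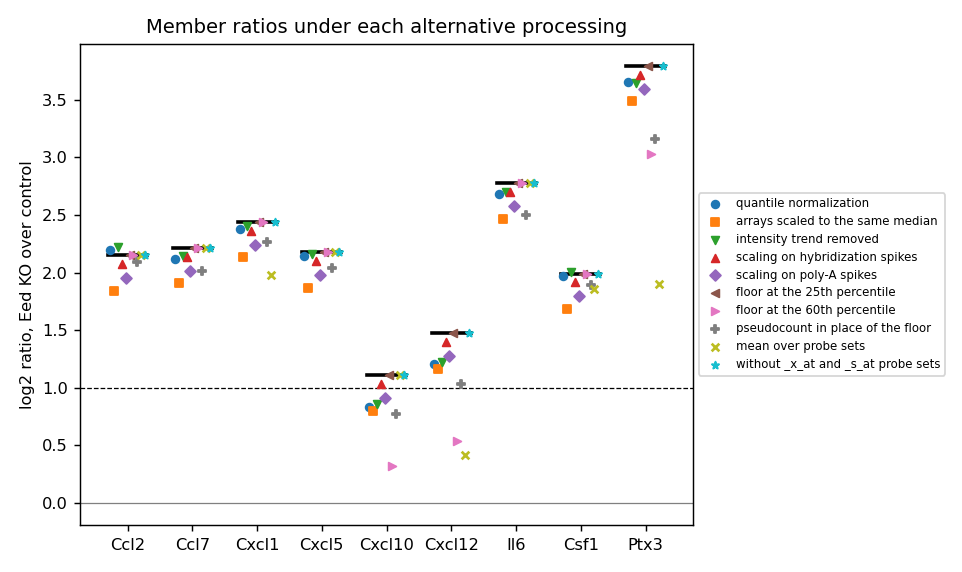
Log2 ratio of Eed KO over control for each of the 9 genes as reported (black bar) and under 10 alternative scalings, floors and probe set rules (coloured symbols). The dashed line marks 2-fold and the grey line a ratio of 1. Every symbol lies above the grey line, and those under the dashed line belong to Cxcl10 and Cxcl12.

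The other chemokines were a mixed group. Of 32 listed, 29 had a named probe set and 18 were measured. Of these 18, 8 (44.4%) were at least 2-fold higher, where 10.8% of all measured genes were. Among measured genes about as dim as Cxcl10 that share was 22%. The count lower was 0, but for most of the 18 the control signal was too near the floor for such a call. Under a 25th percentile floor 2 were lower. The median log2 ratio of the 18 was at least 0.91, against 0.12 over all measured genes. Besides Cxcl2 and Cxcl3, the larger ratios were those of Cxcl14 (93.8 and 317.4, 3.38-fold), a chemokine of epithelium and stroma, and Ccl20 (93.4 and 307.9, 3.30-fold), the ligand of Ccr6. Under the higher floor the count was 3, and the bounds for Cxcl3, Cxcl14 and Ccl20 did not reach 2-fold, while that for Cxcl2 was a log2 ratio of at least 1.12. The T cell and myeloid chemokines Ccl3 (2.0 and 8.2) and Ccl5 (4.9 and 53.8) were under the floor on both arrays.

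Of 13 listed receptors of the 9 ligands, 12 had a named probe set and 9 were measured. At least 2-fold higher was 1 of them, or 11.1%, near the 10.8% of all measured genes, and 0 were lower. Their median log2 ratio was at least 0.59, against 0.12 over all measured genes. Ccr3 (4.7 and 4.1) and Cxcr2 (8.6 and 7.5), receptors of Ccl7 and of Cxcl1 and Cxcl5, were under the floor on both arrays. Ccr2, the receptor of Ccl2 and Ccl7, was under it by its main probe set (47.9 and 30.6), and 2 of its other probe sets passed it on 1 array each, with 63.6 and 18.4, and 14.6 and 63.7. Ccr1 read 38.8 and 85.8, Cxcr3 69.6 and 113.4, and Cxcr4 59.9 and 92.4. The decoy receptors Ackr1, Ackr2 and Ackr3 read 64.3 and 148.9 (2.32-fold, and past 2-fold in 5 of 9 alternatives), 80.1 and 71.6, and 272.9 and 463.4. Il6ra read 198.9 and 224.1 and Il6st 976.6 and 730.1 (log2 ratio -0.42), with log2 ratios of -0.07 to 0.63 for the 3 other Il6st probe sets. Csf1r read 151.5 and 266.1 (log2 ratio 0.81) by its main probe set, and 99.0 and 315.5 (log2 ratio 1.67) and 78.8 and 295.5 (log2 ratio 1.91) by its others, and is also on the macrophage list.

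Among 30 other cytokines, 19 were measured. Of these 19, 4 (21.1%) were higher by 2-fold or more, where 10.8% of all measured genes were. The count lower was 0, but most had control signals too near the floor for such a call. Their median log2 ratio was at least 0.43. Tslp, an epithelial and stromal cytokine, was under the floor in the control (15.5) and read 497.2 in the Eed KO, at least 8.11-fold higher. Il1a was at least 3.53-fold higher (58.0 and 216.3), and Il11 and Lif, which like Il6 signal through Il6st, read 76.2 and 198.8 (2.61-fold) and 139.7 and 355.4 (2.54-fold). Under the higher floor, which lies above the control signals, the log2 ratio was at least 1.56 for Tslp, at least 0.36 for Il1a and at least 0.24 for Il11, and the last 2 bounds do not reach 2-fold. Lif was at 0.92 as the mean over its probe sets. The inflammatory cytokine Tnf was under the floor on both arrays (14.2 and 49.5), and Il1b read 67.2 and 73.3.

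Ptx3 was set beside other pentraxins and acute-phase genes. Of 14 listed, 6 were measured, 3 of them (50%) higher by 2-fold or more and 0 lower, where 10.8% of all measured genes were higher. The median log2 ratio was at least 0.84. The short pentraxins Crp (30.5 and 51.6) and Apcs (9.5 and 6.2) were under the floor on both arrays, and the neuronal pentraxins Nptx1 and Nptx2 read 99.0 and 127.7, and 379.1 and 332.2. The higher ones were the acute-phase gene Saa3 (387.8 and 1008, 2.60-fold), Lcn2, an iron-siderophore binding protein (at least 3.13-fold, 27.6 and 192.0), and Tnfaip6, a hyaluronan-binding protein that also binds Ptx3 (62.8 and 157.0, 2.50-fold). Under the higher floor the bound for Lcn2 was a log2 ratio of at least 0.19, which does not reach 2-fold, and with a pseudocount Tnfaip6 was at 0.81.

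No NF-kB subunit passed 2-fold by its main probe set, and no direction is drawn for them. Rela read 857.3 and 970.4 (log2 ratio 0.18), Nfkb2 210.7 and 246.4 (0.23, but -0.75 for its other probe set, 218.3 and 130.1), Relb 183.4 and 220.7 (0.27) and Rel 88.8 and 82.5 (-0.11), all as log2 ratios, and Nfkb1 is not analysed here. Nfkbia, the inhibitor that NF-kB itself induces, read 3428 and 5321 (log2 ratio 0.63), with 0.31 to 0.86 for its 4 other probe sets. Of the 22 measured genes of this pathway, 4 (18.2%) were at least 2-fold higher and 0 lower, where 10.8% of all measured genes were higher. The median log2 ratio over the 22 was at least 0.27. The 4 were the receptors Tlr2 (99.2 and 303.4, 3.06-fold) and Tnfrsf1a (288.4 and 829.0, 2.87-fold), and the NF-kB feedback genes Tnfaip3 (116.9 and 256.5) and Nfkbiz (460.8 and 927.2). Tnfaip3 and Nfkbiz were past 2-fold in 3 of 10 alternatives each, and Tlr2 in 9.

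Of 13 further measured transcription factors and signalling genes of cytokine control, 3 (23.1%) passed 2-fold upward and 0 downward. The median log2 ratio was 0.53, and 10.8% of all measured genes passed 2-fold upward. Atf3, a stress-induced factor, read 71.7 and 423.9 (5.91-fold, and a log2 ratio of at least 1.33 under the higher floor), Cebpb, a C/EBP factor of Il6 and acute-phase genes, 509.0 and 1740 (3.42-fold, with a second probe set at 1.54 on the log2 scale), and Cebpa 79.1 and 168.0 (2.12-fold, past 2-fold in 4 of 9 alternatives). Cebpd read 608.7 and 571.0, Stat3 1647 and 2766, and Socs3, the feedback inhibitor induced by Stat3, 3054 and 3726, all within 2-fold. Of 8 factors that control the decay of cytokine mRNAs, 1 was higher, Khsrp (750.3 and 1702.5, 2.27-fold, past 2-fold in 8 of 10 alternatives). That share of 12.5% is near the 10.8% of all measured genes. Of these factors 0 were lower, and the median log2 ratio was -0.24. Zfp36, which encodes tristetraprolin, read 515.9 and 365.2.

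Markers of fibroblasts were higher in the same array. Of 28 listed, 25 were measured, all of them on both arrays. Of these 25, 21 (84%) were at least 2-fold higher and 0 lower, where 10.8% and 3.27% of all measured genes were. The median log2 ratio of these markers was 1.54. Their summed signal was 21552 (control) and 55166 (Eed KO), 2.56 times as much. For the 9 genes the sums were 3399 and 16423, or 4.83 times as much. Such sums weigh bright probe sets most, so those of different lists are not set against each other. The brightest fibroblast markers, Vim, Acta2 and Tagln, had log2 ratios of 1.24, 1.22 and 0.95, all under the list median. Vim read 4989 and 11776, Acta2 4361 and 10183, Tagln 4491 and 8702, and Lox 1355 and 4454, all above the floor on both arrays. Lum (52.1 and 54.8) and Fap (2.8 and 34.5) were under the floor on both. Log2 ratios of the 25 markers ran from 0.76 to 2.77. Il6 and Ptx3 had a larger ratio than all 25, Cxcl1 than 24, Ccl7 than 22, Cxcl5 than 21, Ccl2 than 20, Csf1 than 19, Cxcl12 than 10 and Cxcl10 than 4. Places set by differences under the SD between probe sets are not resolved. An example is Il6 (log2 ratio 2.78, SD 0.25) beside Prrx1 (2.77). The part of fibroblasts in the higher chemokine and cytokine signals was not tested.

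Lists of other cell types had lower medians, with floored ratios counted as they stand. Of 12 macrophage and leukocyte markers 9 were measured, with 0 at least 2-fold higher or lower. Their median log2 ratio was at least 0.17, and their summed signals were 2568 and 2861. The count higher was 3 under the 25th percentile floor and 2 with a pseudocount. The pan-leukocyte gene Ptprc (23.8 and 9.9), Itgam (15.0 and 35.2) and Aif1 (7.4 and 32.2) were under the floor on both arrays. Cd14 (11.5 and 105.3), Tyrobp (5.6 and 76.5), Lyz2 (47.4 and 105.0) and Cd52 (43.9 and 68.9) were above it in the Eed KO only. They were so by less than 2-fold, so with this floor they could not be called higher. Csf1r, given above, was at log2 ratios of 0.81 to 1.91 by its 3 probe sets. Laptm5 read 1460 and 1354, Cd68 623.5 and 642.8, and Adgre1 97.5 and 83.9. Of 7 measured endothelial markers 1 was higher (Flt1, 104.2 and 346.0), or 14.3%, where 10.8% of all measured genes were. Lower was 1 (Esam, 259.0 and 124.2, past 2-fold in 8 of 10 alternatives). The summed signals of the endothelial list were 1693 and 1987, and Tie1 and Emcn were under the floor on both arrays. Pecam1 read 723.0 and 1096, and Tek 297.8 and 169.7. Of 12 extraembryonic endoderm markers 4 (33.3%) were higher and 1 lower, where 10.8% and 3.27% of all measured genes were. Their median log2 ratio was at least 0.40, and their summed signals were 10336.5 and 15641. The higher ones were the lineage factors Sox17 (120.3 and 483.2, log2 ratio 2.01, with 1.10 for its other probe set), Sox7 (85.2 and 329.8, 1.95), Gata6 (121.8 and 341.1, 1.49) and Gata4 (103.5 and 229.8, 1.15). Gata4 was past 2-fold in 3 of 10 alternatives, and its other probe set was at 0.05. The lower one was Cubn (517.3 and 198.9, -1.38), past 2-fold in 9 of 10 alternatives, with -0.70 for its other probe set. Sparc read 4654 and 9189, Lamb1 2996 and 2649, Lama1 985.1 and 1551, and Dab2 569.2 and 420.1.

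**Figure D5:**
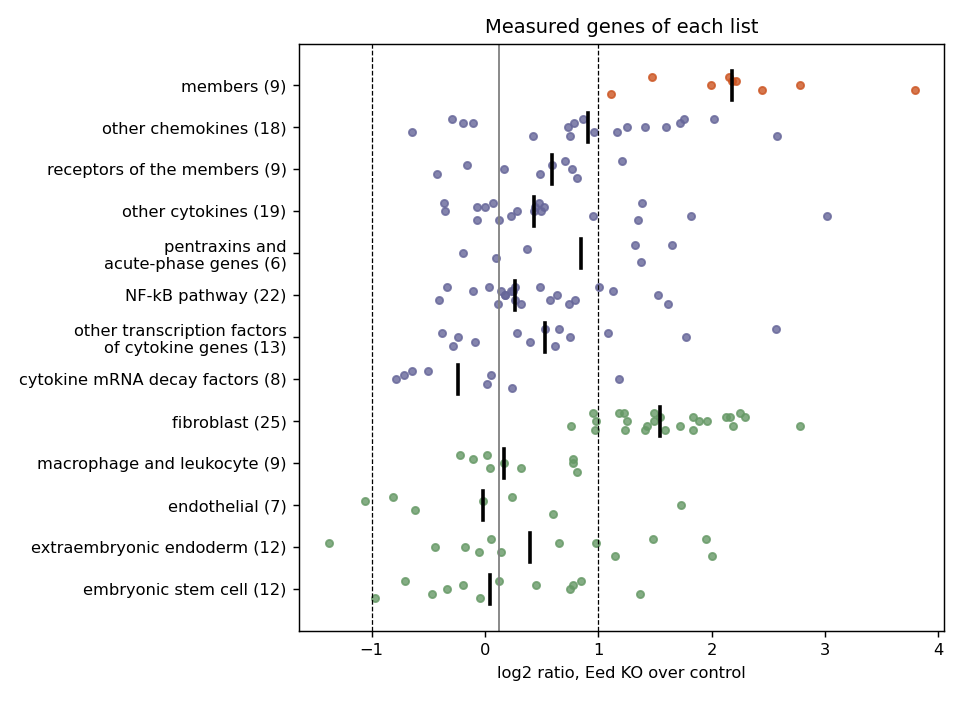
Log2 ratio of Eed KO over control for each measured gene of the 9 described (members, orange), the pathway lists (violet) and the cell type marker lists (green), with the number measured in brackets. Black ticks are list medians, the grey line the median of all measured genes (0.12), and dashed lines 2-fold. The tick of the 9 genes lies at 2.18 and that of the fibroblast markers at 1.54, and the ticks of the other lists lie left of the upper 2-fold line.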

How the data were processed

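RNA of mouse ES cells was measured on 1 Affymetrix MOE430 2.0 array for the control and 1 for the Eed KO, with groups taken from the sample titles. The deposited values are MAS5 signals, that is linear intensities per probe set, as the submitters' processing notes name MAS5 with no version. They had been scaled: the 2% trimmed mean of all values was 500.0 on both arrays. No detection calls were used, and no genome build enters the values.

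Names came from GEO's platform annotation: 34945 probe sets had 1 symbol, 932 had several, 9160 had none in that table and 64 were control probe sets. With 18193 genes, ratios, floor and calls were computed as the report describes in Python 3.11.15 with pandas 2.3.3 and numpy 2.4.6 (statsmodels 0.14.6 for the lowess trend, span 0.3). The procedure was tested on simulated data. Gene lists were matched by symbol or unique synonym.

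The 9 genes and the lists were chosen with earlier results of these data known. Named were all 9 genes, up to 4 of the most different genes past 2-fold of each pathway list, all receptors and NF-kB subunits, and up to 4 of the brightest markers of each cell type. Named beyond that rule, after their values were seen, were genome neighbours, markers under the floor, the endoderm factors, leukocyte markers that passed the floor solely in the knockout, and members of the lists within 2-fold. The 12 alternatives were scalings (quantile, same median, lowess, 18 hybridization spikes, 24 poly-A spikes), a floor at the 25th or at the 60th percentile, a pseudocount, averaging a gene's probe sets, no _x_at or _s_at probe sets, and calls at 1.5-fold and 3-fold.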

Additional observations from a re-analysis of the deposited data

How the results depend on the processing

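The count of the 9 genes at least 2-fold higher stayed between 7 and 9 under all 12 alternatives, and the count lower stayed at 0. It was 8 after quantile normalization, same-median scaling, removal of the intensity trend, poly-A scaling, with a pseudocount and when a gene's probe sets were averaged, and 7 under a 60th percentile floor and at 3-fold. The genes that did not reach 2-fold were Cxcl10 (log2 ratio 0.32 to 0.91) and Cxcl12 (0.42 and 0.54), where 0.32 and 0.54, under the 60th percentile floor, are lower bounds. The count past 4-fold, 6 as deposited, ranged from 3 with same-median scaling to 7 with the intensity trend removed, and was 4 with poly-A scaling and with probe sets averaged. The median log2 ratio of 2.18 was 1.87 with same-median scaling and 1.98 both with poly-A scaling and when probe sets were averaged. Same-median and poly-A scaling lower the Eed KO signals by construction, and with averaging the median gene is Cxcl1, whose _x_at probe set gave a lower ratio. Over all genes, 1483 were higher and 451 lower as deposited, 873 and 1034 with same-median scaling, 2244 and 684 under a 25th percentile floor, 3210 and 1413 at 1.5-fold and 487 and 102 at 3-fold. With poly-A scaling 766 were lower, and under the 60th percentile floor 806 were higher. The list counts were small and moved with the setting: NF-kB pathway genes higher were 4 as deposited and 1 to 7 under the alternatives, other cytokines 4 and 2 to 8, other chemokines 8 and 3 to 13, pentraxins and acute-phase genes 3 and 1 to 3, receptors 1 and 0 to 5, further transcription factors 3 and 2 to 6, extraembryonic endoderm markers 4 and 2 to 6, leukocyte markers 0 and 0 to 3, endothelial markers 1 and 1 to 2, and fibroblast markers 21 and 11 to 25. Counts lower were 0 and up to 3 for mRNA decay factors, 0 and up to 2 for ES cell markers and other chemokines, and 1 and up to 3 for endothelial markers. No called gene of the lists or the 9 changed sign. No paired analysis was possible because each group has 1 array. Signals near the floor, as for Cxcl10 and Cxcl12, limit what these arrays resolve.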
